A study of Mus musculus with 6 samples.

Results

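Collagen chains are the subunits that wind in threes, as identical or different chains, into the triple helices of the extracellular matrix, and 43 genes for them were followed here in bulk RNA sequencing of mouse skin squamous cell carcinoma cells. They are the protein-coding genes of the deposited table whose symbol has the form Col, a number, the letter a and a number, leaving out Col17a1, a hemidesmosome collagen. They are 43 of the 21834 protein-coding genes and of the 55481 entries in the table. DMBA, a carcinogen, followed by TPA, a promoter of tumour growth, had induced the tumours, so this exposure was shared by every group. Cells with high Itga6 (the integrin alpha 6 chain of basal keratinocytes) and CD80 (a co-stimulatory ligand), which the submitters call tumour stem-like, are the Itga6hi CD80pos group. Those with low Itga6 and no CD80, which they call differentiated cancer cells, are the Itga6low CD80neg group. Each had 2 libraries. Another labelled group, Itga6 high and CD80 negative, was not analysed here. The labels give no strain, age, or sorting marker other than these, and do not say whether the replicates came from separate animals, so each p-value reflects the spread between libraries alone, which may be technical.

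Fibrillar collagens such as types I, III and V build the tensile fibres of the dermis and are made mainly by fibroblasts. FACIT collagens sit on the surface of those fibres, type VI collagen forms beaded filaments around cells, and type IV collagen forms the network of basement membranes, to which type VII adds the anchoring fibrils made largely by basal keratinocytes. Transmembrane collagens are cell-surface proteins. Chains of one trimer come from different genes, so the balance of their transcripts is also described. The chains fell into 11 fibrillar, 9 basement membrane, 9 FACIT, 6 beaded filament, 3 transmembrane and 5 short chain or other genes.

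Values are TPM, transcript levels per gene length scaled to 1000000 in every library, so levels of different chains can be set beside each other but the depth of each library is unknown. Haemoglobin genes held 0.0185% and 0.00621% of TPM in the Itga6hi CD80pos libraries, against 70.9% and 50.4% in the Itga6low CD80neg libraries, which lowers every other value there. The 8 basal keratinocyte markers summed to 42800.4 and 43946 TPM in Itga6hi CD80pos, against 1566 and 4324 TPM in Itga6low CD80neg, and all 8 were higher, 7 of them under all 5 scalings used. Among all tested genes 57.0% were higher, and 6.46% under all 5 scalings. The 8 include Itga6 itself, by which the groups are defined, so its direction was largely set by the design. Lamb3, under 1 TPM in both Itga6low CD80neg libraries, passed the filter of 1 TPM in 2 libraries through Itga6hi CD80pos alone. Its direction was thus largely set by that filter. The 12 fibroblast markers summed to 86.0 and 63.3 TPM in Itga6hi CD80pos, against 2873 and 2398 TPM in Itga6low CD80neg. Of them 11 were lower, beside 9.48% lower and 57.0% higher among all tested genes. All of the 11 but Dcn and Thy1 were under 1 TPM in both Itga6hi CD80pos libraries, so their direction was largely set by the filter of 1 TPM in 2 libraries. Fbln1, at 80.2 and 54.5 TPM against 82.3 and 37.5 TPM, had no call and supplied most of the Itga6hi CD80pos sum. No fibroblast marker was at 0 in both Itga6hi CD80pos libraries, and Fap and Twist2 were listed at 0 in replicate 1 of that group. In bulk libraries, fewer cells of a type and less RNA per cell cannot be told apart, and the part of fibroblast RNA in the collagen values was not tested.

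Collagen transcripts were scarce in Itga6hi CD80pos cells and abundant in Itga6low CD80neg cells, and different classes led the sum in each group. All 43 chains summed to 175 and 433 TPM in Itga6hi CD80pos, against 9962 and 5436 TPM in Itga6low CD80neg. Basement membrane chains made up 78.8% and 85.8% of that sum in Itga6hi CD80pos, against 6.71% and 4.42% in Itga6low CD80neg. Fibrillar chains made up 6.31% and 2.64% in Itga6hi CD80pos, against 76.9% and 76.6% in Itga6low CD80neg, and beaded filament chains 1.29% and 1.12% against 12.0% and 12.4%. In Itga6hi CD80pos 2 and 6 chains reached 10 TPM, against 21 and 19 chains in Itga6low CD80neg.

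**Figure D1:**
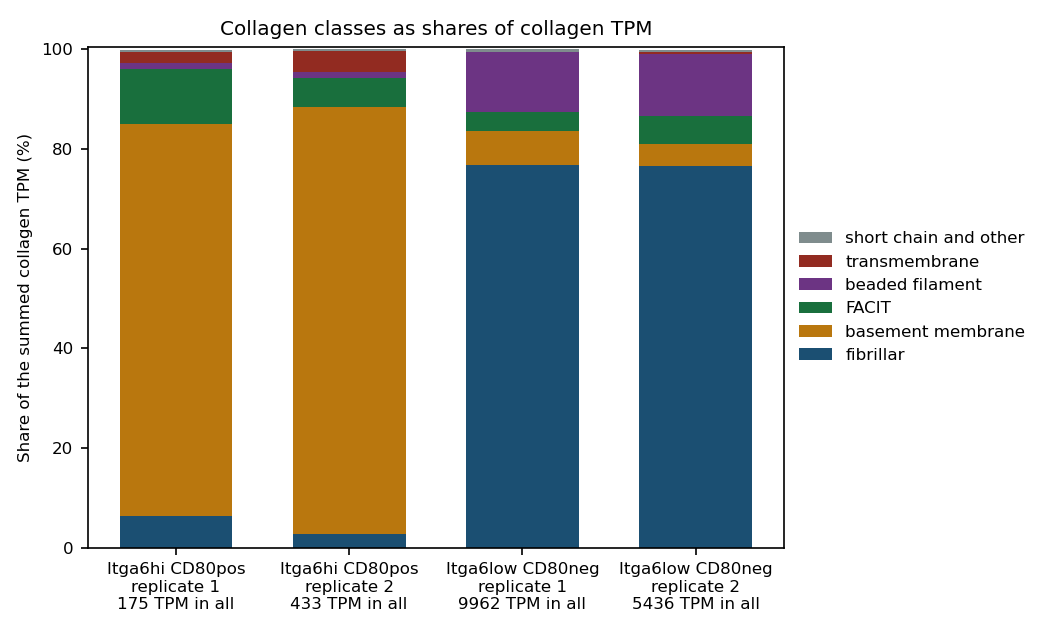
Share of the summed TPM of 43 collagen chains held by each class (y axis, %), 1 bar per library, with the sum in TPM under each bar. Basement membrane chains fill 78.8% and 85.8% of the Itga6hi CD80pos bars, and fibrillar chains 76.9% and 76.6% of the Itga6low CD80neg bars.

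Of the 43 chains, 28 passed the filter of at least 1 TPM in at least 2 libraries. In limma's fit over 13474 genes, with Benjamini-Hochberg adjustment at 0.05, 24 of these 28 were lower and 2 were higher in Itga6hi CD80pos, and 2 had no call. Over all tested genes 9.48% were lower and 57.0% were higher. Of the 28 chains, 10 had a log2 fold change under -5, against 0.876% of all tested genes. The median log2 fold change was -3.15 over the 28 chains and 1.27 over all tested genes. The count is partly set by the filter, since 10 chains passed it through the Itga6low CD80neg libraries alone and 1, Col4a5, through the Itga6hi CD80pos libraries alone. Without any filter, both Itga6hi CD80pos values lay below both Itga6low CD80neg values for 33 of the 43 chains and above them for 4, and overlapped for 6. Among the 18316 protein-coding genes above 0 in a library, those shares were 17.1% below and 56.6% above. The gene-level calls rested on having both Itga6hi CD80pos libraries. Without replicate 1 of that group every call was lost, for the chains and over all genes, and without replicate 2 most were lost in both. The median log2 fold change of the 28 chains was -2.74 without replicate 1 and -3.79 without replicate 2. Over all tested genes it was 1.24 and 1.31.

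**Figure D2:**
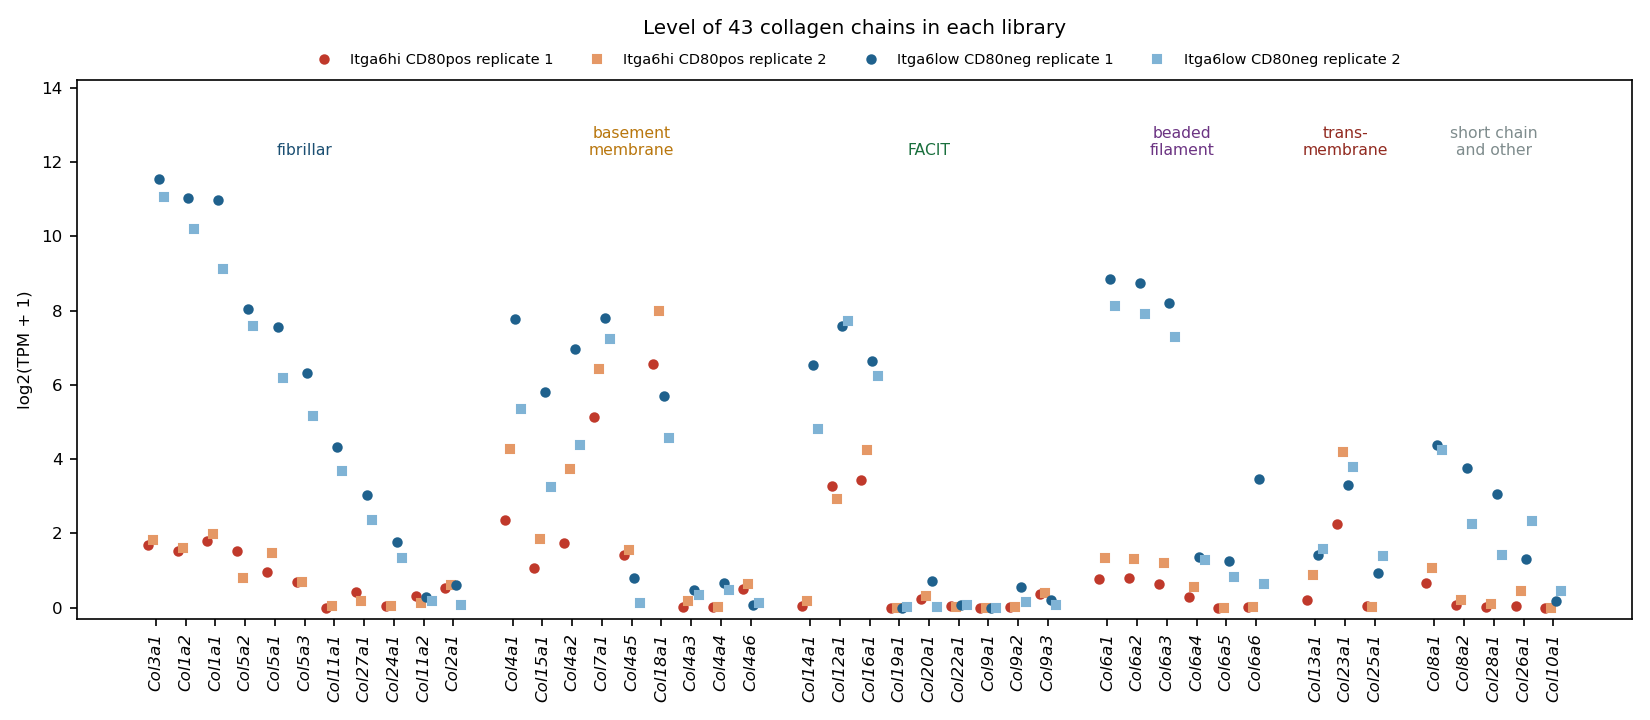
Level of each of the 43 chains as log2(TPM + 1) (y axis) in the 4 libraries, grouped by class, with 1 point per library. The Itga6hi CD80pos points lie below both Itga6low CD80neg points for 33 chains and above them for 4, among them Col18a1.

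All 9 tested fibrillar chains were lower, 4 of them having passed the filter through the Itga6low CD80neg libraries alone, and the chains of types III and I had the lowest log2 fold changes of the 28. Col3a1, the chain of type III collagen in pliable dermis and wounds (plus strand of chromosome 1, 45311538 to 45349706 in GRCm38), was listed at 2.22 and 2.56 TPM in Itga6hi CD80pos, against 2963 and 2123 TPM in Itga6low CD80neg. It had the highest collagen level in both Itga6low CD80neg libraries and ranked 9 and 10 in the Itga6hi CD80pos libraries. Its log2 fold change was -9.53 ± 0.39 (SE, limma adjusted p = 0.00162, n = 2 libraries each). Col1a2, a chain of type I collagen, the main tensile collagen of skin (plus strand of chromosome 6, 4504814 to 4541544), reached 1.88 and 2.03 TPM in Itga6hi CD80pos, against 2108 and 1172 TPM in Itga6low CD80neg, a log2 fold change of -9.06 ± 0.43 (SE, limma adjusted p = 0.00162). Its partner Col1a1 (plus strand of chromosome 11, 94936224 to 94953042) reached 2.47 and 2.92 TPM in Itga6hi CD80pos, against 2029 and 555 TPM in Itga6low CD80neg, a log2 fold change of -8.17 ± 0.67 (SE, limma adjusted p = 0.00296). Col1a1 differed by 3.66 times between the Itga6low CD80neg replicates and Col1a2 by 1.80 times, and neither overlapped between the groups. Together these 3 chains were the first 3 in rank in both Itga6low CD80neg libraries.

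Type V chains, which help to start type I fibrils, had lower levels and were also lower in Itga6hi CD80pos. Col5a2 stood at 1.87 and 0.75 TPM in Itga6hi CD80pos, against 264 and 191 TPM in Itga6low CD80neg, a log2 fold change of -6.65 ± 0.39 (SE, limma adjusted p = 0.00185). Col5a1 stood at 0.931 and 1.77 TPM in Itga6hi CD80pos, against 189 and 71.5 TPM in Itga6low CD80neg, and Col5a3 at 0.604 and 0.606 TPM against 78.2 and 35.0 TPM. Col11a1, a cartilage fibril chain also used as a marker of activated fibroblasts in human tumours, was listed at 0 and 0.0248 TPM in Itga6hi CD80pos, against 19.2 and 11.7 TPM in Itga6low CD80neg. Col27a1 and Col24a1, fibrillar chains described mainly in cartilage and bone, had log2 fold changes of -2.40 ± 0.34 and -1.52 ± 0.28 (SE), with at most 7.22 TPM in any library. The cartilage chains Col2a1 and Col11a2 stayed under 1 TPM in every library, were not tested, and overlapped between the groups. All 9 fibrillar calls also held under each of 4 other scalings between libraries (median of ratios, quantile, the total without haemoglobin genes, and the total without keratin, haemoglobin, ribosomal protein and mitochondrial genes). Without Itga6hi CD80pos replicate 2, 7 of the 9 held, and without replicate 1, 0 held.

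The windows of Col3a1, the chain with the lowest log2 fold change, and of Col5a1, a type V chain, had the lowest and the highest GC content of the 37 windows held, so they show the ends of the range and not a typical pair. They are shown as the 250 bases before each RefSeq start (GRCm38.p6, plus strand, chr1:45311288-45311537 and chr2:27886175-27886424), with capitals marking the motif TATAAA, the motif CCAAT or the motif GGGCGG on either strand.
Col3a1: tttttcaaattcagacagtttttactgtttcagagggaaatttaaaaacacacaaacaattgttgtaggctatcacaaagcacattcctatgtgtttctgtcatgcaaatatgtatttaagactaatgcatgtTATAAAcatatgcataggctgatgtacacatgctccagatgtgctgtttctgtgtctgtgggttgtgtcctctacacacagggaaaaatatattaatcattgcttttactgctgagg
Col5a1: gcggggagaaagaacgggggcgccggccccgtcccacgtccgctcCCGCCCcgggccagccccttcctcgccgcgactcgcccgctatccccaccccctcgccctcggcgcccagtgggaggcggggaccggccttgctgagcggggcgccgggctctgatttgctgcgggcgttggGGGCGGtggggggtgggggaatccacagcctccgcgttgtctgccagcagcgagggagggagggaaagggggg
GC content was 35.2% for Col3a1 and 76.4% for Col5a1. Col3a1 had 1 TATAAA match and no GGGCGG match, and Col5a1 had 2 GGGCGG matches and no TATAAA match, and both genes were lower. The 37 RefSeq windows covered 34 chains. GGGCGG or its reverse complement was in 22 of 37 (59.5%), against 57.3% of the 12637 windows of tested genes and 32.7% of all 32851 windows. CCAAT was in 12 of 37 (32.4%), against 35.2% and 33.8%, and TATAAA in 4 of 37 (10.8%), against 6.77% and 12.4%. The motifs share no bases in the printed windows, and a match describes these letters only.

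All 4 tested beaded filament chains were lower, Col6a4 having passed the filter through the Itga6low CD80neg libraries alone. Col6a1, Col6a2 and Col6a3, which join as one trimer, stood at 0.714 and 1.52 TPM, 0.742 and 1.5 TPM, and 0.567 and 1.32 TPM in Itga6hi CD80pos. In Itga6low CD80neg they stood at 459 and 279 TPM, 429.6 and 240.5 TPM, and 293 and 154 TPM. Their log2 fold changes were -7.43 ± 0.41, -7.27 ± 0.42 and -6.81 ± 0.44 (SE, limma adjusted p from 0.00162 to 0.00195). The levels of the 3 chains stayed within a factor of 2 of each other in every library. The ratio of Col6a1 to Col6a2 was 0.963 and 1.01 in Itga6hi CD80pos, against 1.07 and 1.16 in Itga6low CD80neg, and Col6a3 to Col6a1 was 0.794 and 0.87, against 0.638 and 0.554. Col6a4, a related alternative chain, stood at 0.218 and 0.474 TPM in Itga6hi CD80pos, against 1.59 and 1.44 TPM in Itga6low CD80neg, a log2 fold change of -0.91 ± 0.27 (SE, limma adjusted p = 0.0298). Col6a5 and Col6a6, its neighbours on chromosome 9, were under the filter. Col6a6 stood at 0.00878 and 0.0205 TPM in Itga6hi CD80pos, against 10 and 0.543 TPM in Itga6low CD80neg, so 1 library held nearly all of it.

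All 3 tested FACIT chains were lower, Col14a1 having passed the filter through the Itga6low CD80neg libraries alone. Col14a1, a fibril-bound chain of dermis, stood at 0.0399 and 0.138 TPM in Itga6hi CD80pos, against 92.4 and 27 TPM in Itga6low CD80neg, a log2 fold change of -5.56 ± 0.60 (SE, limma adjusted p = 0.00424). Col12a1, a fibril-bound chain of tissues under tension, stood at 8.60 and 6.56 TPM in Itga6hi CD80pos, against 192 and 208 TPM in Itga6low CD80neg, a log2 fold change of -4.56 ± 0.33 (SE, limma adjusted p = 0.00257). Col16a1, a FACIT chain found near basement membranes and made by keratinocytes and fibroblasts, stood at 9.89 and 18.1 TPM in Itga6hi CD80pos, against 99.1 and 74.8 TPM in Itga6low CD80neg, a log2 fold change of -2.60 ± 0.42 (SE, limma adjusted p = 0.00708). Col12a1 and Col16a1 were above every fibrillar chain in both Itga6hi CD80pos libraries, although both were lower there. The other 6 FACIT genes (Col9a1, Col9a2, Col9a3, Col19a1, Col20a1 and Col22a1) stayed under 1 TPM in every library, and Col9a1 was listed at 0 in all 4.

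Basement membrane chains went both ways on deposited TPM only. Of 6 tested, 3 were lower, 2 were higher and 1 had no call, beside 9.48% lower and 57.0% higher among all tested genes. Under all 5 scalings 1 was lower and 0 were higher, beside 8.30% and 6.46% of all tested genes. Col18a1, the basement membrane collagen from which endostatin is cut (chromosome 10, 77052178 to 77166548, minus strand), stood at 93.5 and 251 TPM in Itga6hi CD80pos, against 50.6 and 22.6 TPM in Itga6low CD80neg. It ranked 1 among collagen chains in both Itga6hi CD80pos libraries, with 53.6% and 58.0% of collagen TPM, and 17 and 15 in the Itga6low CD80neg libraries, with 0.508% and 0.416%. Its log2 fold change was 2.14 ± 0.65 (SE, limma adjusted p = 0.0332). That call was lost under the 4 other scalings, with log2 fold changes from 0.76 to 1.01 and adjusted p from 0.362 to 0.525, and when any 1 library was left out (adjusted p from 0.069 to 0.217). With haemoglobin left out of the total, Col18a1 stood at 93.6 and 251 in Itga6hi CD80pos, against 174 and 45.6 in Itga6low CD80neg, and the groups overlapped.

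Col7a1, the anchoring fibril chain that ties the epidermal basement membrane to the dermis (plus strand of chromosome 9, 108953586 to 108984875), ranked 2 in both Itga6hi CD80pos libraries and was lower there. It stood at 34.3 and 84.5 TPM in Itga6hi CD80pos, against 221 and 149 TPM in Itga6low CD80neg, a log2 fold change of -1.73 ± 0.56 (SE, limma adjusted p = 0.0397). The call held under the 4 other scalings, with log2 fold changes from -3.12 to -2.90, but not when any 1 library was left out (adjusted p from 0.095 to 0.351). Set over Col17a1, the hemidesmosome collagen left out of the chains, the ratio of Col7a1 to Col17a1 was 0.149 and 0.177 in Itga6hi CD80pos, against 121 and 88.1 in Itga6low CD80neg. Col7a1 itself lay between 34.3 and 221 TPM, so most of the difference in this ratio lay in Col17a1. The windows before the RefSeq starts of Col7a1 and Col18a1 are shown because these chains led the Itga6hi CD80pos libraries. Their calls on deposited TPM also had opposite directions, though that of Col18a1 was lost under the 4 other scalings. The windows (GRCm38.p6) are chr9:108953336-108953585 on the plus strand and chr10:77166549-77166780 on the minus strand, with capitals as above. The Col18a1 window is given without bases in an annotated exon.
Col7a1: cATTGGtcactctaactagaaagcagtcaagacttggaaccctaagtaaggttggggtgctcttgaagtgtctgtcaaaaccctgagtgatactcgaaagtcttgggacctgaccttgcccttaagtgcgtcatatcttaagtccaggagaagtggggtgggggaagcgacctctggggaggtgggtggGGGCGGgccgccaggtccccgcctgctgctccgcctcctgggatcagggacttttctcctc
Col18a1: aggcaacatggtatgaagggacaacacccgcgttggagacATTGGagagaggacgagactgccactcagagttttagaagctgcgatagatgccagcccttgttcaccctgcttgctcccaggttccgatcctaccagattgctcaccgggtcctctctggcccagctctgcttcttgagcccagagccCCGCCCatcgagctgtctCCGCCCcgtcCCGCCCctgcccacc
Col7a1 had 1 CCAAT and 1 GGGCGG match at 56.4% GC. Col18a1 had 1 CCAAT and 3 GGGCGG matches at 60.8% GC. RefSeq lists another Col18a1 start as well, and gene-level TPM do not separate the transcripts.

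Type IV chains come as head-to-head gene pairs, and each pair is given in turn. Col4a1 and Col4a2, the chains of nearly all basement membranes, including those of vessels, overlap by 22 bases at their starts on chromosome 8, and reads from those bases cannot be told apart where strand is not stated. Col4a1 stood at 4.14 and 18.2 TPM in Itga6hi CD80pos, against 217 and 39.4 TPM in Itga6low CD80neg, a log2 fold change of -3.24 ± 0.99 (SE, limma adjusted p = 0.0339). Col4a2 stood at 2.33 and 12.2 TPM in Itga6hi CD80pos, against 124 and 20.0 TPM in Itga6low CD80neg, and missed the threshold with a log2 fold change of -2.95 ± 1.04 (SE, limma adjusted p = 0.0504). The ratio of Col4a1 to Col4a2 was 1.78 and 1.49 in Itga6hi CD80pos, against 1.76 and 1.98 in Itga6low CD80neg, a narrow range beside that of the levels themselves. Col4a5 and Col4a6, chains of epithelial basement membranes that lie 1308 bases apart on chromosome X, were the 2 of 6 type IV chains with both Itga6hi CD80pos values above both Itga6low CD80neg values. Col4a5 stood at 1.67 and 1.92 TPM in Itga6hi CD80pos, against 0.727 and 0.0812 TPM in Itga6low CD80neg, a log2 fold change of 1.03 ± 0.33 (SE, limma adjusted p = 0.0380), which lay under the median of all genes. Its call was lost under the 4 other scalings (limma adjusted p from 0.207 to 0.619), and with haemoglobin left out of the total the groups overlapped. Col4a6, under the filter, stood at 0.415 and 0.551 TPM in Itga6hi CD80pos, against 0.0446 and 0.0911 TPM in Itga6low CD80neg. Col4a3 and Col4a4, the pair best known from kidney and separated by 71 bases on chromosome 1, stayed under 1 TPM, with both Itga6hi CD80pos values below both Itga6low CD80neg values.

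Col4a1, Col4a2 and Col15a1 differed more between the Itga6low CD80neg replicates than any other tested chain at 1 TPM or more in both. Col15a1, a basement membrane collagen of vessels, muscle and nerve, stood at 1.11 and 2.57 TPM in Itga6hi CD80pos, against 54.8 and 8.42 TPM in Itga6low CD80neg, a log2 fold change of -3.06 ± 0.86 (SE, limma adjusted p = 0.0270). The calls of Col15a1 and Col4a1 were each lost under 3 of the 4 other scalings (limma adjusted p up to 0.0625 and 0.0627), where their log2 fold changes were larger in size, from -4.41 to -3.99 for Col15a1 and from -4.63 to -4.41 for Col4a1. Both calls were also lost when either Itga6hi CD80pos library or Itga6low CD80neg replicate 1 was left out. Itga6low CD80neg replicate 1 exceeded replicate 2 by 5.50 times for Col4a1, 6.19 times for Col4a2 and 6.51 times for Col15a1, against 1.38 to 3.66 times for fibrillar chains. The median of the same ratio was 1.54 over 12 fibroblast markers, 1.77 over 7 markers of pericytes and smooth muscle, and 0.772 over all tested genes at 1 TPM or more in both libraries. Of 10 endothelial markers, both Itga6hi CD80pos values lay above both Itga6low CD80neg values for 7 and below them for 3 (Tek, Flt1 and Erg). Among protein-coding genes above 0 in a library, those shares were 56.6% and 17.1%. Only 3 of the 10 were tested, with 1 higher, 1 lower and 1 without a call, and 0 kept a call under all 5 scalings. Egfl7, with the highest TPM among them in Itga6hi CD80pos, stood at 10.4 and 9.95 TPM there, against 0.873 and 1.47 TPM in Itga6low CD80neg, and was higher (limma adjusted p = 0.00523) though not under all 5 scalings. Cldn5 was listed at 0 in both Itga6low CD80neg libraries. The endothelial markers summed to 16.3 and 22.7 TPM in Itga6hi CD80pos, against 12.6 and 7.27 TPM in Itga6low CD80neg, and their part in the type IV values was not tested. Among Itga6hi CD80pos libraries, replicate 2 exceeded replicate 1 by 4.38 times for Col4a1, 5.23 times for Col4a2, 2.46 times for Col7a1 and 2.68 times for Col18a1, against a median of 0.937 over all tested genes.

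Of the transmembrane chains, 1 of 2 tested was lower, Col13a1, which had passed the filter through the Itga6low CD80neg libraries alone. Col23a1, a transmembrane chain found in skin, stood at 3.8 and 17.3 TPM in Itga6hi CD80pos, against 8.83 and 12.9 TPM in Itga6low CD80neg, so that the groups overlapped. Its log2 fold change of -0.32 ± 0.67 (SE, limma adjusted p = 0.690) did not pass, and turned to 0.65 without Itga6hi CD80pos replicate 1. Col13a1, a transmembrane chain of cell junctions, stood at 0.151 and 0.828 TPM in Itga6hi CD80pos, against 1.66 and 2.01 TPM in Itga6low CD80neg, a log2 fold change of -0.96 ± 0.33 (SE, limma adjusted p = 0.0467) that was lost when any 1 library was left out. Col25a1, known from neurons, was under the filter, at 0.0284 and 0.00314 TPM in Itga6hi CD80pos, against 0.908 and 1.60 TPM in Itga6low CD80neg.

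Of the short chain and other collagens 4 were tested and called lower, but 3 of them (Col8a2, Col28a1 and Col26a1) had passed the filter through the Itga6low CD80neg libraries alone, so their direction was largely set by it. Col8a1, a short chain collagen of vessel walls and remodelling tissue, stood at 0.584 and 1.10 TPM in Itga6hi CD80pos, against 19.9 and 17.9 TPM in Itga6low CD80neg, a log2 fold change of -3.44 ± 0.30 (SE, limma adjusted p = 0.00337). Col8a2 stood at 0.0456 and 0.164 TPM in Itga6hi CD80pos, against 12.5 and 3.81 TPM in Itga6low CD80neg. Col28a1, known from peripheral nerve, stood at 0.00934 and 0.0657 TPM in Itga6hi CD80pos, against 7.32 and 1.65 TPM in Itga6low CD80neg, and Col26a1 at 0.0331 and 0.377 TPM against 1.47 and 4 TPM. The Col28a1 call was lost under 3 of the 4 other scalings, with log2 fold changes from -3.36 to -2.69 there, against -2.18 on deposited TPM (limma adjusted p up to 0.0686). Of 6 Schwann cell markers, both Itga6hi CD80pos values lay above both Itga6low CD80neg values for 3 and below them for 3. Among protein-coding genes above 0 in a library, those shares were 56.6% and 17.1%. Sox10, 1 of those below, stood at 0 and 0.189 TPM in Itga6hi CD80pos, against 0.738 and 1.09 TPM in Itga6low CD80neg. The 6 markers summed to 22.4 and 28.2 TPM, against 4.47 and 6.49 TPM. Only 2 were tested, and both were higher, beside 57.0% of all tested genes. Col10a1, the chain of hypertrophic cartilage, was listed at 0 in both Itga6hi CD80pos libraries and was under the filter.

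**Figure D3:**
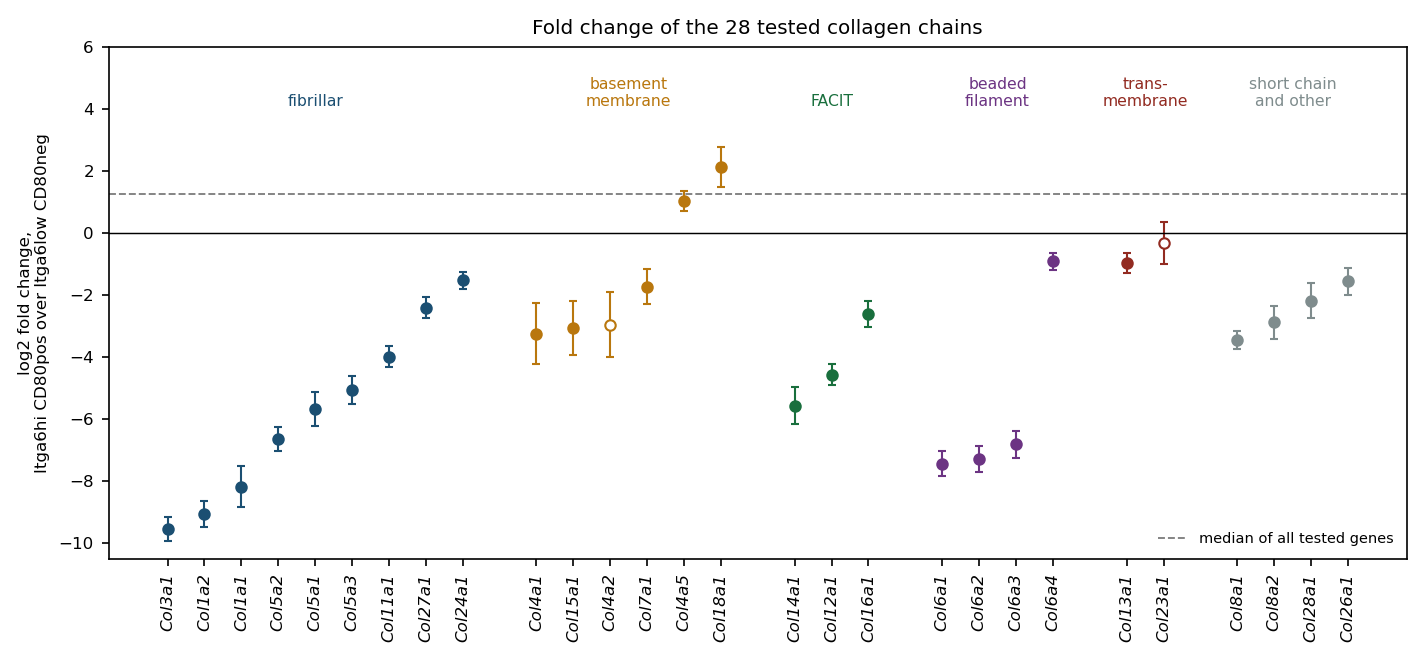
Log2 fold change of Itga6hi CD80pos over Itga6low CD80neg (y axis) for the 28 tested chains by class, with bars of 1 SE. Filled points passed limma at an adjusted p under 0.05, open points (Col4a2 and Col23a1) did not, and the dashed line marks the median of all tested genes at 1.27, which only Col18a1 exceeds.

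The calls were mostly kept when the libraries were scaled in another way. Under all 5 scalings, counting the deposited TPM as 1 of them, 21 of 28 chains were lower and 0 were higher, against 8.30% lower and 6.46% higher among all tested genes. The 21 were all 9 fibrillar, 4 beaded filament and 3 FACIT chains, 3 of 4 short chain and other members, Col7a1 and Col13a1. With haemoglobin left out of the total, both Itga6hi CD80pos values lay below both Itga6low CD80neg values for 35 of 43 chains and above them for 1, Col4a6, against 31.3% and 29.9% of protein-coding genes.

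**Figure D4:**
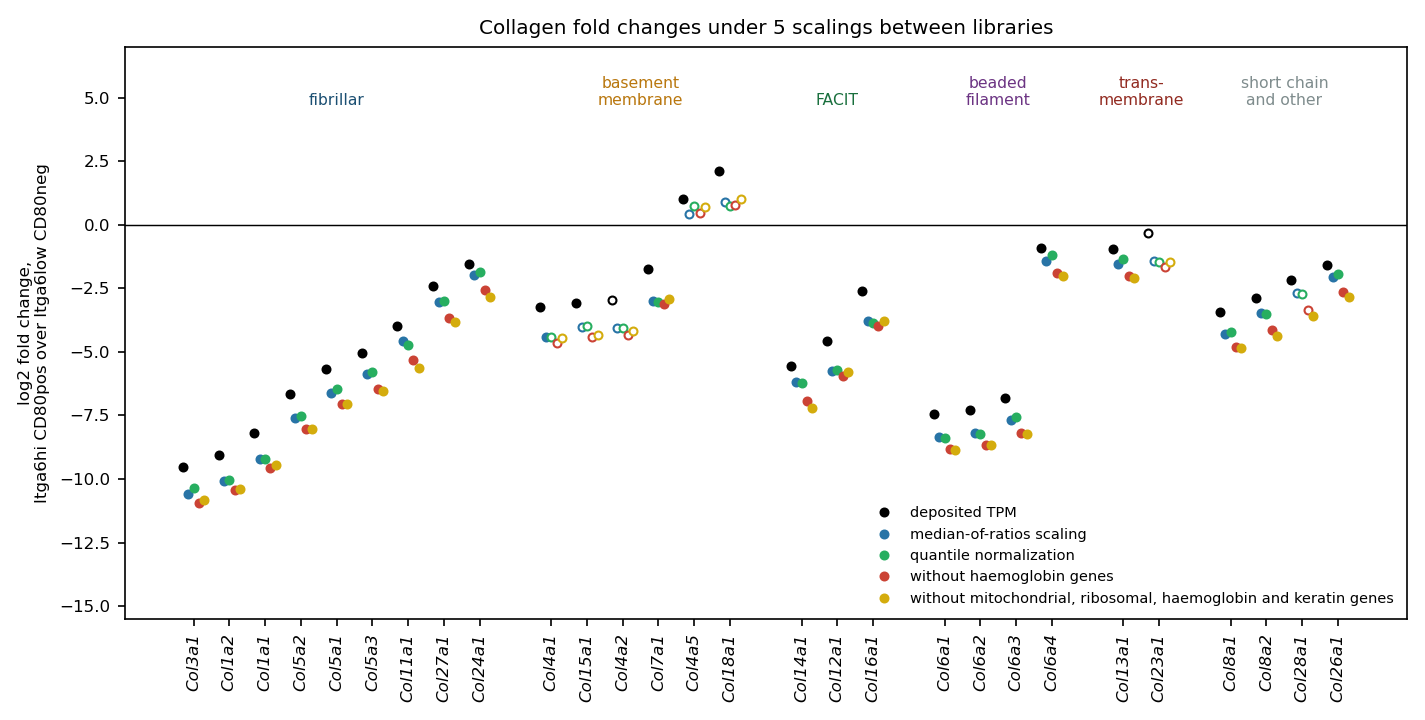
Log2 fold change of Itga6hi CD80pos over Itga6low CD80neg (y axis) for the 28 tested chains under the deposited TPM and 4 other scalings, with filled points for limma adjusted p under 0.05 and open points otherwise. No tested chain changes sign, and Col18a1 and Col4a5 are filled under the deposited TPM alone.

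Chains were also set against Dcn, the fibroblast marker with the highest TPM in the Itga6low CD80neg libraries. In Itga6hi CD80pos, Fbln1 and Thy1 were above it. This ratio was chosen after the values were seen. Dcn itself stood at 1.27 and 1.10 TPM in Itga6hi CD80pos, against 1086 and 935 TPM in Itga6low CD80neg, a log2 fold change of -8.85 ± 0.33 (SE, limma adjusted p = 0.00162), so a rise of the ratio is common and 96.8% of tested genes had one with no overlap. The ratio of Col1a2 to Dcn was 1.48 and 1.86 in Itga6hi CD80pos, against 1.94 and 1.25 in Itga6low CD80neg. Col3a1 to Dcn was 1.75 and 2.33, against 2.73 and 2.27, and Col14a1 to Dcn was 0.0315 and 0.126, against 0.0851 and 0.0289. These chains and Col11a1 were the 4 of 28 whose ratio overlapped between the groups. Col12a1 to Dcn was 6.78 and 5.99 in Itga6hi CD80pos, against 0.177 and 0.222 in Itga6low CD80neg, and Col7a1 to Dcn was 27.1 and 77.1, against 0.204 and 0.159. Col18a1 to Dcn was 73.7 and 229 in Itga6hi CD80pos, against 0.0466 and 0.0242 in Itga6low CD80neg. The ratio of Col1a1 to Col1a2 was 1.31 and 1.44 in Itga6hi CD80pos, against 0.963 and 0.474 in Itga6low CD80neg.

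**Figure D5:**
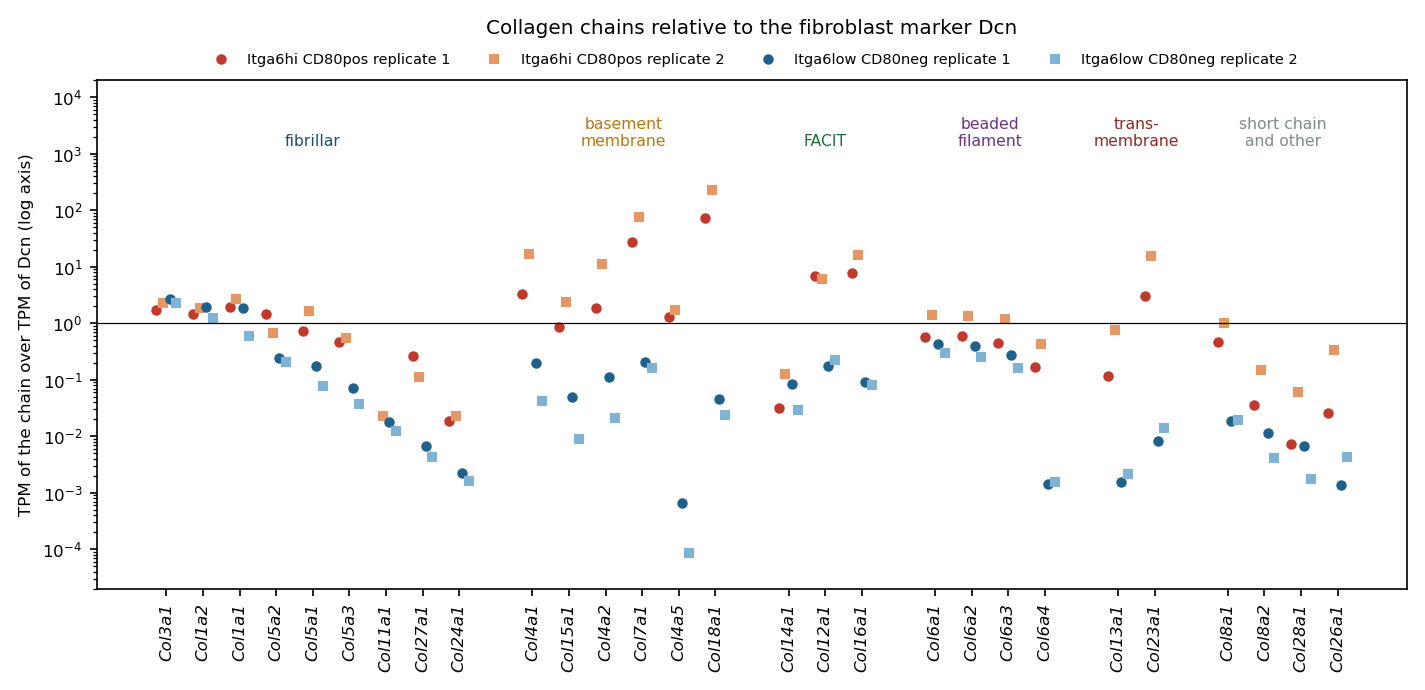
TPM of each of the 28 tested chains over the TPM of Dcn (y axis, log scale), 1 point per library; Col11a1, listed at 0 in Itga6hi CD80pos replicate 1, has no point there. Col3a1 and Col1a2 lie between 1.25 and 2.73 in all 4 libraries, while Col18a1 lies at 73.7 and 229 in Itga6hi CD80pos, against 0.0466 and 0.0242 in Itga6low CD80neg.

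Enzymes and cofactors that act on collagen outside the cell were mostly lower in Itga6hi CD80pos. Of 13 procollagen processing and cross-linking genes, 11 were tested, 9 were lower and 0 were higher, beside 9.48% lower and 57.0% higher among all tested genes. The median log2 fold change was -3.61, against 1.27 over all genes, and 8 were lower under all 5 scalings, Adamts14 being the exception. Of the 9 lower genes, all but Pcolce2 passed the filter through the Itga6low CD80neg libraries alone. Their direction was thus largely set by it. Without any filter, both Itga6hi CD80pos values lay below both Itga6low CD80neg values for 9 of the 13 genes and above them for 0. Among protein-coding genes above 0 in a library, those shares were 17.1% and 56.6%. Pcolce, which speeds removal of the C-terminal propeptide, stood at 0.596 and 0.917 TPM in Itga6hi CD80pos, against 244 and 185 TPM in Itga6low CD80neg, a log2 fold change of -6.93 ± 0.33 (SE, limma adjusted p = 0.00162). The cross-linking oxidases Loxl1 and Loxl2 stood at 0.146 and 0.133 TPM, and 0.239 and 0.24 TPM, in Itga6hi CD80pos, against 103 and 58.2 TPM, and 68.5 and 32.8 TPM, in Itga6low CD80neg. Adamts2, the N-propeptidase of types I and III, stood at 0.13 and 0.278 TPM in Itga6hi CD80pos, against 76.0 and 34.1 TPM in Itga6low CD80neg. Bmp1, the C-propeptidase that also cuts laminin-332 and type VII procollagen, had no call, at 29.0 and 70.3 TPM in Itga6hi CD80pos, against 75.3 and 65.1 TPM in Itga6low CD80neg.

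Enzymes and chaperones of the endoplasmic reticulum were less uniform. Of 20 such genes, 19 were tested, 7 were lower, 2 were higher and 10 had no call, with a median log2 fold change of -0.06, beside 9.48% lower and 57.0% higher among all tested genes. Fkbp10, a collagen chaperone, stood at 1.83 and 3.75 TPM in Itga6hi CD80pos, against 48.9 and 36.2 TPM in Itga6low CD80neg. P3h3 and P4ha3, prolyl hydroxylases, and Fkbp14, a prolyl isomerase, had log2 fold changes of -3.19 ± 0.28, -2.96 ± 0.38 and -3.15 ± 0.31 (SE). Fkbp14 stood at 0.272 and 0.719 TPM in Itga6hi CD80pos, against 11.1 and 13.3 TPM in Itga6low CD80neg. It passed the filter through the Itga6low CD80neg libraries alone, so its direction was largely set by it. P3h2, a prolyl 3-hydroxylase known to act on type IV collagen, was higher, at 18.5 and 20.9 TPM in Itga6hi CD80pos, against 0.51 and 1.40 TPM in Itga6low CD80neg, a log2 fold change of 3.44 ± 0.35 (SE, limma adjusted p = 0.00394) that held under the 4 other scalings. P3h4, a partner of lysyl hydroxylase, was higher on deposited TPM but under none of the 4 other scalings, at 39.0 and 46.1 TPM in Itga6hi CD80pos, against 12.9 and 20.0 TPM in Itga6low CD80neg.

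Collagen receptors differed by family member. Of 10 receptors, 7 were tested, 3 were lower and 2 were higher, beside 9.48% lower and 57.0% higher among all tested genes. Of these, Itga11 passed the filter through the Itga6low CD80neg libraries alone and Itga2 through the Itga6hi CD80pos libraries alone. The direction of both was thus largely set by it. Ddr1, the discoidin domain receptor of epithelia, stood at 84.9 and 66.2 TPM in Itga6hi CD80pos, against 5.59 and 7.06 TPM in Itga6low CD80neg, a log2 fold change of 3.38 ± 0.33 (SE, limma adjusted p = 0.00374) that held under the 4 other scalings. Ddr2, its relative of mesenchymal cells, stood at 1.16 and 2.01 TPM in Itga6hi CD80pos, against 20.9 and 6.86 TPM in Itga6low CD80neg, and was lower under all 5 scalings. Itga11, the fibroblast integrin chain for fibrillar collagen, stood at 0.0553 and 0.0308 TPM in Itga6hi CD80pos, against 28.7 and 12.0 TPM in Itga6low CD80neg. Itga2, the keratinocyte integrin chain for collagen, stood at 2.25 and 7.87 TPM in Itga6hi CD80pos, against 0.483 and 0.587 TPM in Itga6low CD80neg, and was higher on deposited TPM but under none of the 4 other scalings (limma adjusted p = 0.0276). Mrc2, an endocytic collagen receptor, was lower, at 8.83 and 7.73 TPM in Itga6hi CD80pos, against 38.0 and 17.6 TPM in Itga6low CD80neg.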

How the data were processed

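PolyA RNA of mouse skin squamous cell carcinoma cells was isolated by a Zymo Microprep procedure, and NEBNext single-cell reagents gave the libraries, per the labels. The authors deposited TPM per gene, made with kallisto 0.44.0 on the build mm10 per the submitters' processing notes; the annotation, strand setting and summing of transcripts are not given in the sources used here. TPM keep no depth, so count-based intervals and detection limits are not given. The table held 4 libraries, and 2 libraries of another group in the labels were not analysed here.

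The 13474 genes that reached 1 TPM in 2 or more libraries were compared as log2(TPM + 1) with limma 3.58.1 in R 4.3.3 (eBayes with trend, two-sided, Benjamini-Hochberg over all tested genes, threshold 0.05, 2 residual and 3.33 prior degrees of freedom), after a test on simulated data. Fold changes on that scale understate changes of low genes. An exact permutation test of 2 against 2 libraries cannot pass 0.05 and was not used. Alternatives were other pseudocounts (0.1 and 5), no filter, a mean of at least 5 TPM, 4 scalings, each library left out and a replicate block. Coordinates are from GENCODE M21 (GRCm38) and promoter windows from RefSeq on GRCm38.p6.

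The chains, classes and lists were chosen with earlier results of these data known. Every chain could be named. Full statistics go to up to 4 tested chains of each class by absolute log2 fold change and to chains called higher; up to 4 called members in each direction are named from the enzyme and receptor lists, and the member with the highest TPM from marker lists. Col7a1, Col4a2, Bmp1, Fbln1, Thy1, Fap, Twist2, Tek, Flt1, Erg, Cldn5, Cd68, Pparg, Adipoq, Adamts14, Pcolce2, Itga6, Lamb3, Notch3, Myh11, Des, Kcnj8 and Sox10 were picked beside these after their values were seen.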

Additional observations from a re-analysis of the deposited data

How the results depend on the processing

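The number of collagen chains lower in Itga6hi CD80pos stayed between 17 and 25 under the alternatives that kept all 4 libraries, against 24 on deposited TPM, and ranged from 0 to 22 when 1 library was left out. Chains called higher numbered 2 on deposited TPM, 1 with a pseudocount of 0.1 or a mean of at least 5 TPM, 0 with no filter or under any of the 4 other scalings, and 0 to 1 when 1 library was left out. Leave-one-out fits gave 0 to 9 lower fibrillar chains, 0 to 2 basement membrane, 0 to 3 FACIT and 0 to 0 transmembrane. Lower basement membrane chains were 3 on deposited TPM and 1 with no filter, quantile normalization, no haemoglobin, or no mitochondrial, ribosomal protein, haemoglobin and keratin genes. Lower transmembrane chains were 1, and 0 with a pseudocount of 0.1, no filter or a mean of at least 5 TPM. Of single chains, 1 reversed: Col23a1 had a log2 fold change of 0.65 without Itga6hi CD80pos replicate 1 and -1.29 without replicate 2.

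Over all genes, 7686 higher calls became 4564 with no filter, 1372 under median of ratios, 1448 under quantile normalization, 1040 without haemoglobin genes and 1797 without mitochondrial, ribosomal protein, haemoglobin and keratin genes, and 0 to 8227 with 1 library left out. The 1277 lower calls became 613 with a mean of at least 5 TPM, where fewer genes are tested, and 0 to 1237 with 1 library left out. The 0 calls without Itga6hi CD80pos replicate 1 stood beside 4442 higher and 1033 lower at an unadjusted p under 0.05. Scalings moved the all-gene median (log2 fold change) to 0.24, 0.27, 0.16 and 0.37 in the order given, against 1.27. With the replicate block, 25 chains were lower and 2 higher, Col4a2 being added, and 8044 genes were higher and 1452 lower; replicate differences correlated between groups at 0.109 over genes, and the labels give no pairing. The cause of these changes was not tested. With 2 libraries a group and no depth in TPM, the counting error of chains under 1 TPM is unknown.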

Other observations

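Marker lists of other cell types had these summed levels, and their calls stand beside 9.48% lower and 57.0% higher among all tested genes. Suprabasal keratinocyte markers summed to 8663 and 8439 TPM in Itga6hi CD80pos, against 921 and 3547 TPM in Itga6low CD80neg, with 1 of 7 higher and 1 lower. Skeletal muscle markers summed to 5.94 and 10.8 TPM in Itga6hi CD80pos, against 99.5 and 46.8 TPM in Itga6low CD80neg, with 3 of 4 tested lower. These 3 had passed the filter through the Itga6low CD80neg libraries alone. Pericyte and smooth muscle markers summed to 61.5 and 50.0 TPM in Itga6hi CD80pos, against 169.7 and 205 TPM in Itga6low CD80neg, with 5 of 7 tested lower and 1 higher. Of the lower ones, Myh11, Des and Kcnj8 had passed the filter through the Itga6low CD80neg libraries alone, so their direction was largely set by it. The higher one, Notch3, stood at 29.0 and 16.8 TPM in Itga6hi CD80pos, against 4.8 and 1.39 TPM in Itga6low CD80neg, though its call did not hold under all 5 scalings. Macrophage markers summed to 6.85 and 4.30 TPM in Itga6hi CD80pos, against 4.33 and 9.11 TPM in Itga6low CD80neg. Cd68 held 6.39 and 4.03 TPM of the Itga6hi CD80pos sums. It was the only 1 of the 7 macrophage markers that was tested, and it had no call. Both Itga6hi CD80pos values lay below both Itga6low CD80neg values for 5 of the 7 and above them for 1. Among protein-coding genes above 0 in a library, those shares were 17.1% and 56.6%. Adipocyte markers summed to 13.2 and 5.72 TPM in Itga6hi CD80pos, against 1.39 and 0.911 TPM in Itga6low CD80neg. Pparg made up most of both Itga6hi CD80pos sums, and Adipoq was listed at 0 in all 4 libraries.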
